A study of Mus musculus with 6 samples.

Results

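The Zfp genes of the mouse encode zinc finger proteins, and here they were taken as every gene of the deposited table whose symbol is Zfp followed by a number and at most 1 letter, leaving out Zfp36, an RNA-binding protein of another kind. This gave 101 of the 7340 listed genes. RNA was sequenced from mouse kidneys labelled wild type, 3 with ischaemia-reperfusion injury (IRI) and MK-8617, and 3 with IRI without it. MK-8617 blocks the prolyl hydroxylases, enzymes whose action leads to the breakdown of hypoxia-inducible factor (HIF), and IRI is the damage left when the blood supply of a kidney is stopped and restored. All 6 samples carried the injury, and no uninjured kidney is analysed here. The series title frames the question as prolyl hydroxylase inhibition, Sox9+ renal progenitor cells and regeneration. The column names carry a 1-day tag that the sample labels do not repeat, 2 of the MK-8617 samples (replicates 2 and 3) have MK8618 and MK8619 in their treatment field and MK8617 in their title, which was followed, and the series' design text speaks of tumours where the labels say kidney. Nothing in the labels ties a replicate to an animal of its own. The p-values therefore reflect the spread among these libraries, and that spread may be technical.

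Most Zfp proteins carry C2H2 zinc fingers, short loops in which a pair of cysteines and a pair of histidines hold a zinc ion, and rows of such fingers read DNA sequence. Many also carry a KRAB domain, which recruits the co-repressor Trim28 and, through it, the histone methyltransferase Setdb1. KRAB zinc finger proteins of this kind are known for silencing retroelements, and their genes lie in clusters of close paralogues.

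Counted reads came to 17577794, 16921662 and 16835541 in the kidneys with IRI and MK-8617, against 18697479, 19508497 and 18620621 in the kidneys with IRI. The deposited table lists genes with an unadjusted p below 0.05 in the authors' own test and no others (largest listed p 0.0499), so a gene is in it because it differed there. Any share of listed genes that changed is therefore high by construction and is to be read against the same share of all tested genes. The annotation (GENCODE M21, GRCm38) holds 390 protein-coding Zfp genes, of which 25.9% were listed, against 28.8% of all protein-coding genes. Of the kidney's own cell types, the 4 listed proximal tubule markers of a list of 10 (Slc22a8, Slc27a2, Slc4a4 and Slc5a2) summed to 51519 to 55290 scaled counts with MK-8617 and to 10719 to 29663 in IRI alone.

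Zfp genes were mostly higher in the kidneys with MK-8617. Of the 101, 99 passed the filter on low counts and 2 (Zfp784 and Zfp982) did not. With limma on log2(scaled count + 1) and Benjamini-Hochberg adjustment, 56 of the 99 rose, 7 fell and 36 did not pass the threshold of 0.05. With no filter, 59 of all 101 rose and 9 fell. Over all 6961 tested genes 35.7% rose and 38.7% fell (74.3% in either direction), so the Zfp shares of 56.6% higher and 7.07% lower differ from that background in both directions. The median log2 fold change of the Zfp genes was 0.57 (quartiles 0.39 and 0.71), against -0.31 over all tested genes. The changes were small, from -1.21 to 1.23 on the log2 scale. The 3 libraries of a group did not overlap those of the other in 76 Zfp genes that were higher with MK-8617 and in 13 that were lower, where 44.8% and 47.6% of all tested genes were so separated (92.5% in either direction). Without MK-8617 replicate 1, MK-8617 replicate 2 or IRI replicate 1, the number that rose was 30, 31 or 32, and without any of these or MK-8617 replicate 3 the number that fell was 4. The authors' deposited table gives an adjusted p below 0.05 to 59 Zfp genes that were higher with MK-8617 and 8 that were lower. Shares of all genes are not given here for the authors' test, the test with no filter or the fits without a library. These counts therefore have no background of their own.

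The shift was similar in size in each library. Relative to the mean of the IRI libraries, the median Zfp gene stood at 0.54, 0.58 and 0.50 on the log2 scale in the MK-8617 libraries, against 0.01, -0.02 and 0.03 in the IRI libraries. The median of all tested genes stood at -0.24, -0.26 and -0.25 in the same MK-8617 libraries. Summed over the 101 genes, scaled counts were 43361, 43588 and 41551 with MK-8617, against 31745, 31264 and 31989 in IRI alone. All 3 MK-8617 sums lay above all 3 IRI sums. Each gene was listed because it differed between these same libraries, so separated sums and similar shifts were favoured by construction. No sum over all tested genes is given here for comparison. In bulk tissue, more cells of a type and more RNA per cell cannot be told apart.

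**Figure D1:**
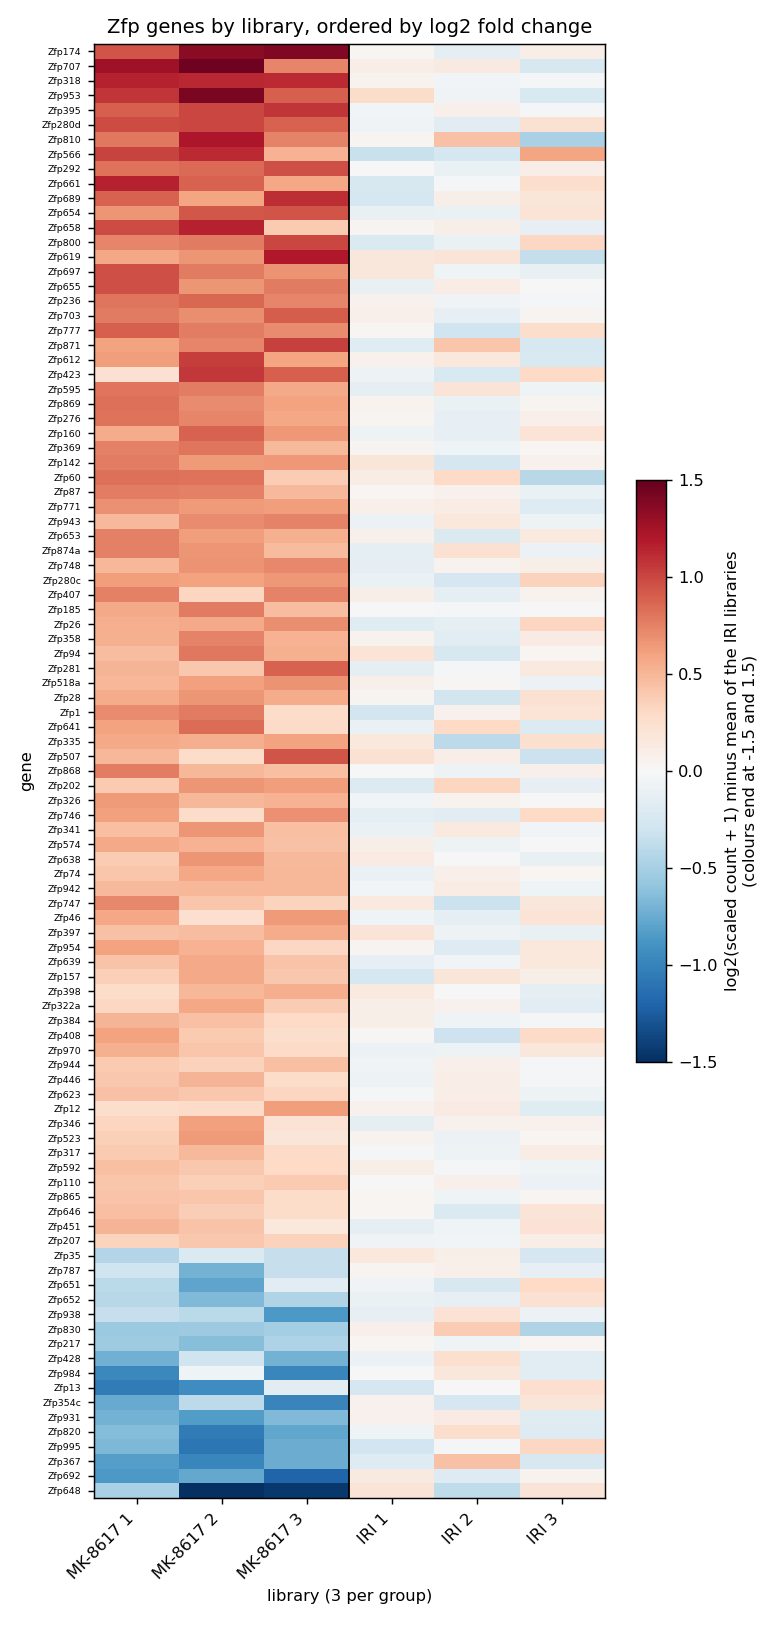
Log2(scaled count + 1) of the 99 tested Zfp genes (rows, ordered by log2 fold change) in the 6 libraries (columns, MK-8617 left, IRI right), relative to the mean of the IRI libraries; red is higher and blue is lower. Most rows are red in all 3 MK-8617 columns, and the 7 genes that fell are among the blue rows at the bottom.

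The promoters of 2 genes that rose and of 2 that fell are shown because HIF, the factor that MK-8617 is known to stabilise, binds DNA at the core letters ACGTG or GCGTG. Each is a RefSeq window of 300 bases on GRCm38.p6, from 250 bases before the transcription start to 50 after it, written along the gene's strand. Capitals mark these letters or their reverse complements CACGT and CACGC, and overlapping matches were all counted. Zfp318 (chr17:46383516-46383815, plus strand) and Zfp292 (chr4:34882899-34883198, minus strand) rose and hold 2 and 7 matches, the most among the named rises with a window, and Zfp692 (chr11:58306819-58307118, plus strand) and Zfp367 (chr13:64153150-64153449, minus strand, the nearer to the gene's start of its 2 windows) fell and hold 0 and 1. The 4 were picked after these counts were seen. Of the other named rises with a window, Zfp953, Zfp280d and Zfp810 hold 1 match and Zfp661 and Zfp689 hold 0. Of the other named falls Zfp217 holds 1 and Zfp995, Zfp652 and Zfp787 hold 0. Zfp661 and Zfp217 have 2 windows each, of which 1 was counted here. The windows of Zfp217 and Zfp652 are placed 5428 and 36394 bases from the annotated gene start, so their counts may not compare with the others.
Zfp318: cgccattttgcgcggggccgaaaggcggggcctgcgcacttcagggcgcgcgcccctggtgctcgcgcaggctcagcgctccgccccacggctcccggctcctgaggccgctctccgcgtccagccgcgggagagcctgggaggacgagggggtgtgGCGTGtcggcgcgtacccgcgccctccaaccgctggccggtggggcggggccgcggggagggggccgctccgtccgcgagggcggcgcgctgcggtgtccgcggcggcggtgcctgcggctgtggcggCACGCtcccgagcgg
Zfp292: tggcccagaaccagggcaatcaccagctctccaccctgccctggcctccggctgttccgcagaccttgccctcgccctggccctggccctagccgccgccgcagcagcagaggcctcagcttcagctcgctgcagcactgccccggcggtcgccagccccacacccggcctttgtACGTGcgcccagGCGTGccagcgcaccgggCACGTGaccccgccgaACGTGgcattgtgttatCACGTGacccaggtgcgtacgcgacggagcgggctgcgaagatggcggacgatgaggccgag
Zfp692: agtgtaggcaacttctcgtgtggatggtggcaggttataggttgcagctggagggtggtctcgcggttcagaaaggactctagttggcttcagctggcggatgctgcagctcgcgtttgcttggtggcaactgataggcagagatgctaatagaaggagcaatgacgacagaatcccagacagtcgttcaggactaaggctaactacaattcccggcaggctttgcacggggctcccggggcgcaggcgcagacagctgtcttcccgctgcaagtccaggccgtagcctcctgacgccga
Zfp367: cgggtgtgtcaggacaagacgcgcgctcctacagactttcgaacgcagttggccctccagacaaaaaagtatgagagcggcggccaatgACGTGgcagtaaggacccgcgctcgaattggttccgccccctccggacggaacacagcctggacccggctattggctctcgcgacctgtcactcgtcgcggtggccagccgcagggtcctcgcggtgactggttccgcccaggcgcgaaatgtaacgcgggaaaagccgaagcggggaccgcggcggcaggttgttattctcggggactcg

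Matches were no more frequent in windows of Zfp genes than in windows of other tested genes. RefSeq windows were at hand for 83 of the 101 genes, 100 windows in all. A match was present in 57.0% of them, against 60.7% of 6305 windows of other tested genes and 43.8% of all 32851 windows. Among Zfp genes that rose 31 of 49 windows held it (63.3%), among those that did not pass the threshold 23 of 38 (60.5%), and among those that fell 3 of 9 (33.3%). These are counts of letters, with no test, and a match is not a site of binding.

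Among the largest rises were genes without a KRAB domain. Zfp318, which mouse B cells need for the expression of IgD, had 1029.7, 1009 and 998 scaled counts with MK-8617, against 479, 448 and 456 in IRI. Its log2 fold change was 1.13 ± 0.09 (SE; limma, adjusted p = 0.000129), and the groups stood far apart. Zfp395, whose human counterpart ZNF395 is known to be induced by hypoxia, had 641, 694 and 728 scaled counts with MK-8617, against 334, 363 and 337 in IRI. Its log2 fold change was 0.99 ± 0.11 (SE, limma adjusted p = 0.00047). Zfp280d had 632, 640.4 and 593 scaled counts with MK-8617, against 308, 284 and 375 in IRI (log2 fold change 0.96 ± 0.13 SE; limma, adjusted p = 0.00124). Zfp292 had 597, 615 and 668 scaled counts with MK-8617, against 341, 318 and 363 in IRI (0.88 ± 0.11 SE on the log2 scale; limma, adjusted p = 0.000908). Zfp654 had 369.9, 446 and 449 scaled counts with MK-8617, against 217, 219 and 268 in IRI (0.84 ± 0.15 SE on the log2 scale; limma, adjusted p = 0.00356). In each of these genes the groups did not overlap, which was a condition for being named and not a further result.

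Zfp707 had the largest rise among the Zfp genes named by the rule. It had 644, 733 and 442 scaled counts with MK-8617, against 286, 292 and 224 in IRI, a log2 fold change of 1.16 ± 0.20 (SE; limma, adjusted p = 0.00317). MK-8617 replicate 3 was the lowest of that group but still above every IRI library. Zfp953 had 74.8, 95.0 and 65.9 scaled counts with MK-8617, against 42.6, 33.7 and 29.7 in IRI (1.13 ± 0.27 SE on the log2 scale; limma, adjusted p = 0.0149). Zfp810 had 749, 1006 and 725 scaled counts with MK-8617, against 445, 589 and 309.6 in IRI (0.92 ± 0.23 SE; limma, adjusted p = 0.0161). The spread within both groups was wide for Zfp810, whose call was lost without MK-8617 replicate 2 (log2 fold change 0.77) or replicate 3 (1.00). That of Zfp953 was lost without MK-8617 replicate 1 (1.16) or replicate 2 (0.99). Zfp661 had 201, 166 and 134 scaled counts with MK-8617, against 75.7, 88.4 and 107 in IRI (0.87 ± 0.23 SE; limma, adjusted p = 0.0199). It lost its call without MK-8617 replicate 1 (0.73), MK-8617 replicate 2 (0.87) or IRI replicate 1 (0.75). Zfp689 had 70.7, 57.6 and 82.9 scaled counts with MK-8617, against 31.2, 40.1 and 43.1 in IRI (0.86 ± 0.27 SE; limma, adjusted p = 0.0431), and lost its call (0.73 to 1.00) without any library except IRI replicate 3. Zfp174, a gene below the count floor of the naming rule and picked after its values were seen, had 47.1, 63.0 and 64.9 scaled counts with MK-8617, against 24.6, 21.9 and 25.9 in IRI. Its log2 fold change of 1.23 ± 0.28 (SE; limma, adjusted p = 0.0119) was the highest of the 99, and its exons overlap those of Zfp597 on the other strand.

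The genes that fell were fewer and mostly of middling level. Zfp692, whose human counterpart was described as a repressor of a gluconeogenic gene, had 374, 399 and 296 scaled counts with MK-8617, against 747, 596 and 703 in IRI (-0.94 ± 0.15 SE on the log2 scale; limma, adjusted p = 0.00222). Zfp367 had 492, 442 and 521 scaled counts with MK-8617, against 763, 1182 and 736 in IRI (-0.85 ± 0.18 SE; limma, adjusted p = 0.00825). IRI replicate 2 was the highest library for Zfp367. The sum of 10 proliferation markers was 468, 465 and 405 scaled counts with MK-8617, against 1765, 5454 and 1891 in IRI, with the highest sum in the same library. Of those 10 markers 9 fell, beside 38.7% of all tested genes, and their part in the change of Zfp367 was not tested. Zfp217, whose human counterpart is a breast cancer oncogene, had 383, 355 and 401 scaled counts with MK-8617, against 566, 532 and 567 in IRI (-0.55 ± 0.11 SE; limma, adjusted p = 0.0065). Zfp652 had 430.3, 361 and 418 scaled counts with MK-8617, against 533, 525 and 672 in IRI (-0.51 ± 0.14 SE; limma, adjusted p = 0.0232). Zfp787 had 622, 469.6 and 604 scaled counts with MK-8617, against 789, 811 and 703 in IRI (-0.45 ± 0.13 SE; limma, adjusted p = 0.0345). In all of these the groups did not overlap, as the naming rule required. Zfp652 lost its call without any MK-8617 library (-0.56 to -0.43) or IRI replicate 3 (-0.40) in DESeq2 (-0.43) and in the test on FPKM (-0.50). Zfp787 lost it without any library except IRI replicate 3 (-0.52 to -0.32), in edgeR with its own TMM scaling (-0.38), in DESeq2 (-0.35) and with the length trend removed (-0.41). In edgeR with the authors' size factors Zfp787 kept its call (-0.44).

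The remaining calls of lower rested on few reads. Zfp995 had 47.1, 35.2 and 44.7 scaled counts with MK-8617, against 61.5, 74.7 and 93.9 in IRI (-0.83 ± 0.27 SE; limma, adjusted p = 0.048). It lost its call in every fit that left out a library (-0.98 to -0.68) and in DESeq2 (-0.77). The same held in edgeR with TMM (-0.79) and with the authors' size factors (-0.86). Zfp648, named after its values were seen, had 37.9, 16.0 and 19.1 scaled counts with MK-8617, against 61.5, 41.0 and 61.4 in IRI (-1.21 ± 0.38 SE, limma adjusted p = 0.0446). It kept its call in 2 of the 6 fits that left out a library (-1.56 to -0.97 over all of them). The call was also lost in edgeR with TMM (-1.10) and with the length trend (-1.16) or both trends (-1.07) removed. Of the untested pair, Zfp784 had 1.02, 6.40 and 3.19 scaled counts with MK-8617 and was at 0 in every IRI library, and Zfp982 had 3.07, 1.07 and 1.06 with MK-8617, against 12.3, 8.20 and 4.79 in IRI. Both pairs of groups were apart, at a depth too low for a fold change.

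**Figure D2:**
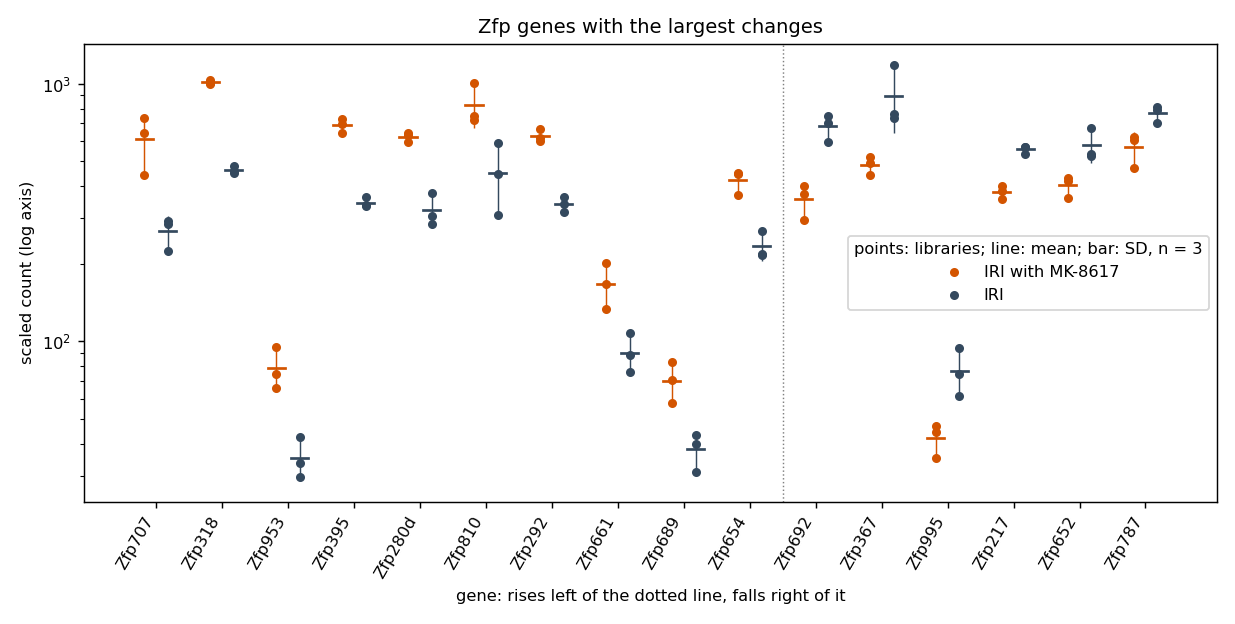
Scaled counts (log axis) of the 10 largest rises and 6 falls named by the rule; points are libraries, lines are means and bars are SD (n = 3 per group), with MK-8617 left of IRI in each gene. The 3 points of a group do not overlap those of the other in any of these genes, as the naming rule required.

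By level per exon length, Zfp genes were modest. The mean over all 6 libraries lay between 0.0456 and 22.8 FPKM, with 14 genes below 1, 58 between 1 and 5 and 29 above 5. FPKM are fragments scaled by library total and by the length of all exons of a gene merged. That length can exceed the transcript length used below, as in Zfp207 (6658 against 1562 bases). The median of the tested Zfp genes was 3.12 FPKM, against 6.49 over all tested genes. Zfp207, which carries the checkpoint protein Bub3 to the spindle, averaged 25.4 ± 0.622 FPKM with MK-8617 and 20.1 ± 1.13 FPKM in IRI (SD, n = 3 each; 0.36 ± 0.09 SE on the log2 scale of scaled counts, limma adjusted p = 0.0205). Its call was lost without MK-8617 replicates 1 or 2 or IRI replicates 1 or 2 (0.33 to 0.37). Zfp771 averaged 21.8 ± 0.454 FPKM with MK-8617 and 14.2 ± 1.64 FPKM in IRI (SD, n = 3 each; limma adjusted p = 0.00361). Both were higher with MK-8617, unlike Zfp692, at 10.1 ± 1.49 FPKM with MK-8617 and 19.5 ± 2.25 FPKM in IRI. Zfp697 averaged 15.4 ± 1.62 FPKM with MK-8617 and 8.9 ± 1.00 FPKM in IRI (SD, n = 3 each; limma adjusted p = 0.00164), and its exons overlap Hsd3b2 and Hsd3b3 on the other strand. Zfp777 averaged 12.6 ± 0.853 FPKM with MK-8617 and 7.45 ± 1.4 FPKM in IRI (SD, n = 3 each; limma adjusted p = 0.00474). Zfp830, a splicing-related protein needed in the early mouse embryo, did not pass the test at 8.44 ± 0.196 FPKM with MK-8617 and 12.8 ± 3.58 FPKM in IRI (limma adjusted p = 0.0806), and passed it without IRI replicate 3 (log2 fold change -0.77, limma adjusted p = 0.00494). The IRI libraries of Zfp830 were the more scattered group.

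Several Zfp genes with known roles are named here for those roles and after their values were seen. Zfp703, whose human counterpart is amplified in luminal breast cancer, averaged 574.5 ± 41.7 scaled counts with MK-8617 and 330.6 ± 23.5 in IRI (SD, n = 3 each; limma adjusted p = 0.00174). Zfp638, which silences unintegrated retroviral DNA, averaged 1076 ± 103 scaled counts with MK-8617 and 754.5 ± 61.7 in IRI (limma adjusted p = 0.00962). Zfp326, a part of the DBIRD complex that links transcription and splicing, averaged 534.3 ± 29.1 scaled counts with MK-8617 and 362.9 ± 13.1 in IRI (limma adjusted p = 0.0061). These 3 rose, as did the KRAB gene Zfp746 (PARIS), a repressor of PGC-1 alpha, at 593.5 ± 85.3 with MK-8617 and 413.5 ± 78.6 in IRI (limma adjusted p = 0.0426), although its libraries overlapped between groups. Zfp423, a gene of preadipocyte commitment and, in humans, of kidney ciliopathy, did not pass the threshold at 82.7 ± 23.5 scaled counts with MK-8617 and 48.6 ± 9.63 in IRI (limma adjusted p = 0.106). Zfp451, a SUMO ligase, did not pass it either at 658.4 ± 81.6 with MK-8617 and 512.6 ± 71.2 in IRI (limma adjusted p = 0.0899).

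Zfp transcripts are long, and long transcripts were higher with MK-8617 throughout the table. Median transcript length was 3711 bases in the tested Zfp genes (962 to 13060) and 2652 bases over all tested genes, and median GC content was 46.8% and 50.6%. Across genes, which are not independent replicates and share the same 6 libraries, the log2 fold change was higher at greater length in Zfp genes (Spearman 0.25, n = 99) and in other genes (0.22, n = 6860). In the shortest length quartile 1 of 3 Zfp genes had a positive change (median -0.57), against 450 of 1738 other genes (median -0.68). In the next quartile 13 of 20 Zfp genes did (median 0.44), against 733 of 1722 other genes (median -0.37). In the third quartile 30 of 34 Zfp genes did (median 0.52), against 931 of 1702 other genes (median 0.34), and in the longest 38 of 42 (median 0.60), against 1123 of 1698 (median 0.40). The Zfp median lay above that of other genes of like length in every quartile, by most in the second, but the shortest held only 3 Zfp genes. Since listed genes had passed the authors' test, few values lie near 0, and a median jumps when the majority of a group of genes changes side.

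**Figure D3:**
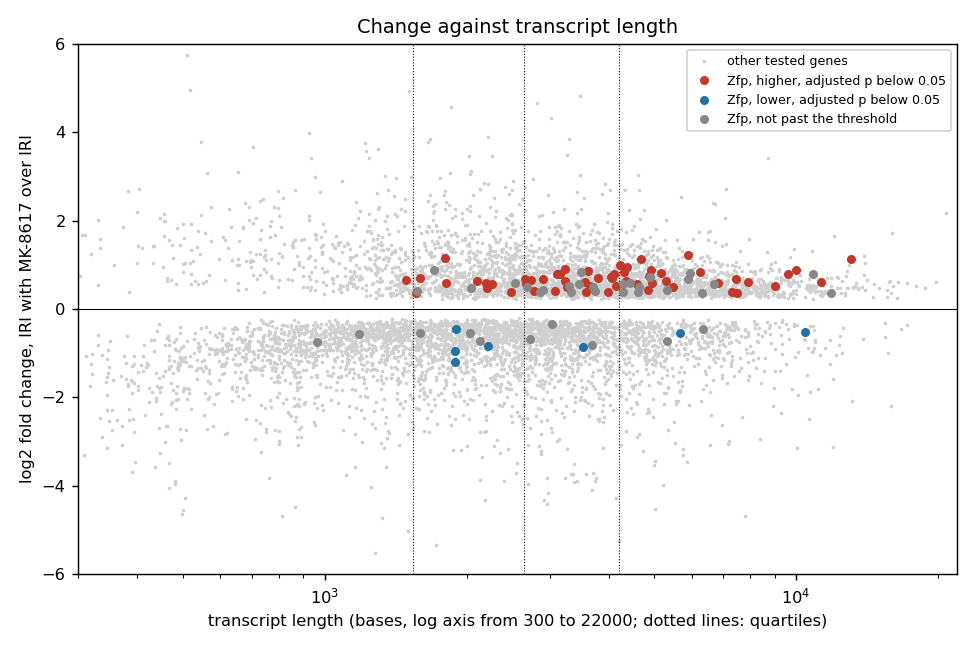
Log2 fold change (MK-8617 over IRI) against transcript length in bases (log axis) for Zfp genes (coloured by call) and other tested genes (grey); dotted lines are the quartiles of length over all tested genes, and the shortest and longest of the other genes are off the axis. Zfp genes lie mostly to the right, with 34 and 42 of the 99 in the 2 longer quartiles.

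When the smooth trend of each library on transcript length was removed, 30 Zfp genes rose and 9 fell, in place of 56 and 7, and 29 of those that rose were among the 56. The background was then 25.3% higher and 35.6% lower. When the trends on length and GC content were both removed, 26 rose, all of them among the 56, and 12 fell, against 25.3% higher and 34.4% lower over all tested genes. The share of Zfp genes that rose, 26.3%, was then near the background share, while the share that fell, 12.1%, was below it. Removing both trends moved the median of all tested genes by 0.21 on the log2 scale, to -0.10, and the Zfp median stood at 0.36, so the distance between them was 0.46 in place of 0.88. A positive change remained in 78 of the 99. Zfp942, Zfp322a and Zfp944, 3 of the genes that rose, stood slightly below 0 (-0.04, -0.02 and -0.02).

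Single genes fared differently. Zfp707 (1.31), Zfp395 (0.92), Zfp318 (0.85), Zfp280d (0.55) and Zfp292 (0.49) stayed past the threshold with both trends removed, as did the falls of Zfp367 (-1.04), Zfp692 (-0.79), Zfp652 (-0.75), Zfp217 (-0.71) and Zfp787 (-0.52). Zfp953 (0.57, limma adjusted p = 0.248), Zfp654 (0.27, limma adjusted p = 0.254) and Zfp771 (0.17, limma adjusted p = 0.795) did not. Zfp638 (0.11) also lost its call. Some genes that had not passed the threshold were lower once both trends were removed, such as Zfp820 (-1.43, limma adjusted p = 0.00835), which had 25.6, 19.2 and 23.4 scaled counts with MK-8617, against 38.8, 49.2 and 35.5 in IRI, and Zfp984 (-1.24, limma adjusted p = 0.00813).

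**Figure D4:**
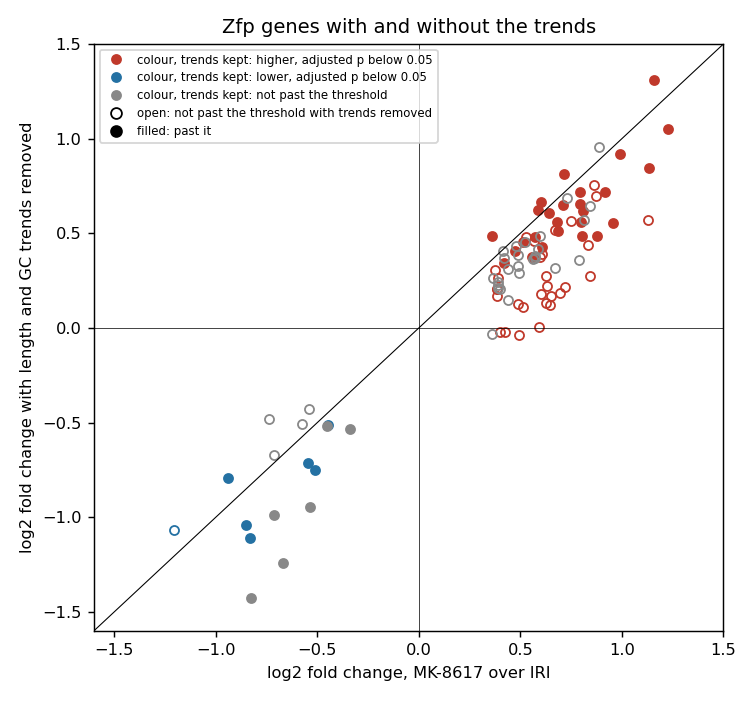
Log2 fold change (MK-8617 over IRI) of the 99 tested Zfp genes without (x axis) and with (y axis) removal of the length and GC trends; colour gives the call with the trends kept and filled points are past the threshold with the trends removed. Most points lie below the diagonal, 26 filled red points remain, and 12 filled points are lower.

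A KRAB A box was found by a sequence profile in 49 of the 101 genes (48.5%), against 237 of the 390 annotated protein-coding Zfp genes (60.8%). Of 48 tested KRAB genes 23 rose (47.9%), 1 fell (2.08%) and the median log2 fold change was 0.58. Of 51 without the profile 33 rose (64.7%), 6 fell (11.8%) and the median was 0.52, where 35.7% of all tested genes rose and 38.7% fell. The KRAB genes had the lower level (median 1.803 FPKM, against 4.26 FPKM). With both trends removed, 6 KRAB genes rose and 5 fell (median 0.34), against 20 and 7 of those without (median 0.37), beside 25.3% of all tested genes that rose and 34.4% that fell. The difference between these classes was not tested. The median number of C2H2 fingers was 8, and 11 in KRAB genes against 6 in the others, with Zfp619 the longest row at 33. Genes with 10 or more fingers had a median log2 fold change of 0.59 (21 of 42 rose), those with 5 to 9 fingers 0.57 (22 of 37) and those with fewer 0.54 (13 of 20), beside the 35.7% of all tested genes. With both trends removed 7 of 42, 11 of 37 and 8 of 20 rose, beside 25.3% of all tested genes. No finger of the standard spacing was found in the reading frame of the transcript chosen for Zfp703, Zfp185, Zfp326 and Zfp451. For Zfp451 that frame had 559 residues, and other transcripts of these genes were not searched.

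Of the 101 genes 44 lie in 16 runs of neighbours at most 1 Mb apart. In the run on chromosome 13 (GRCm38, chr13:67312998-67553830), all 5 KRAB genes rose, namely Zfp595, Zfp953, Zfp874a, Zfp87 and Zfp748, with a median log2 fold change of 0.67. Zfp874a, for instance, averaged 264.0 ± 25.8 scaled counts with MK-8617 and 170.7 ± 24.4 in IRI (SD, n = 3 each; limma adjusted p = 0.0218). With both trends removed none of the 5 passed the threshold, and their log2 fold changes were 0.22 to 0.57. Among the 6 fits that left out a library, Zfp953 kept its call in 4, Zfp874a in 3 and Zfp595, Zfp87 and Zfp748 in 1 each. Exons of Zfp595 and Zfp953 both overlap Gm28044 on the same strand, so their reads may not be separate. In the run on chromosome 17 (chr17:21008903-22361400), 4 of 6 KRAB genes rose and Zfp995 fell, and the run on chromosome 7 (chr7:127244274-127885996) held Zfp771, Zfp747, Zfp689 and Zfp646, all positive, with 2 called. Genes inside runs rose in 25 of 42 cases (59.5%, median 0.50) and genes outside in 31 of 57 (54.4%, median 0.57), beside 35.7% of all tested genes. With both trends removed, 6 of 42 inside runs rose (14.3%) and 5 fell (11.9%), against 20 of 57 outside (35.1%) and 7 that fell (12.3%), beside a background of 25.3% and 34.4%. This difference was not tested. Near-identical paralogues in such runs can share reads, and 38 of the 101 genes have exons that overlap another annotated gene, 31 of them on the opposite strand. The library kit is not described as strand-specific, so single values of these genes are uncertain.

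**Figure D5:**
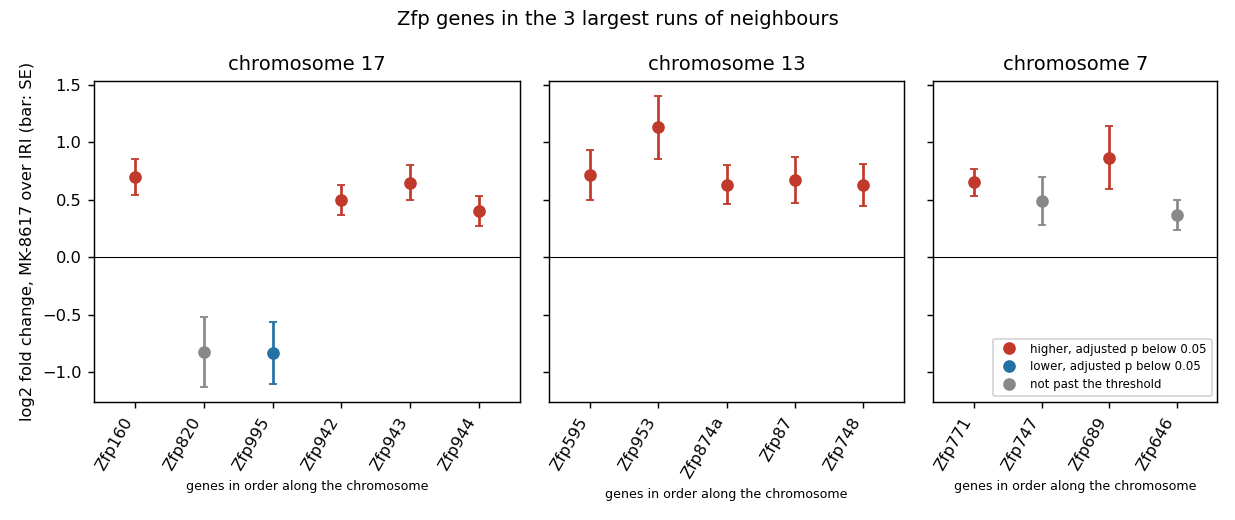
Log2 fold change (MK-8617 over IRI) with its SE for Zfp genes in the 3 largest runs of neighbours, in order along each chromosome; red rose, blue fell, grey did not pass the threshold. All 5 genes of the chromosome 13 run are red, and the chromosome 17 run holds both directions.

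Genes of the KRAB co-repressor and heterochromatin machinery went both ways. Of a list of 25, 11 were tested and 14 were not listed; 6 rose (54.5%) and 3 fell (27.3%), beside 35.7% and 38.7% of all tested genes, with a median log2 fold change of 0.30. Dnmt1, the maintenance DNA methyltransferase, averaged 937 ± 65.9 scaled counts with MK-8617 and 1669.8 ± 225 in IRI (SD, n = 3 each; -0.83 ± 0.12 SE, limma adjusted p = 0.00147). Cbx1, a heterochromatin protein, averaged 786 ± 71.1 with MK-8617 and 1161 ± 49.6 in IRI (limma adjusted p = 0.00413). Both fell, while the de novo methyltransferase Dnmt3b averaged 151 ± 11.5 with MK-8617 and 78.7 ± 11.5 in IRI (0.93 ± 0.20 SE, limma adjusted p = 0.00886). Fam208a, a subunit of the HUSH silencing complex, averaged 682 ± 85.6 with MK-8617 and 436 ± 70.2 in IRI (limma adjusted p = 0.0119) and lost its call with both trends removed (0.20) and without MK-8617 replicate 2 (0.58) or 3 (0.61). Trim28 itself, named for its role and not by the rule, averaged 3227 ± 109 with MK-8617 and 2619.7 ± 150 in IRI (0.30 ± 0.09 SE, limma adjusted p = 0.0425). With both trends removed 1 gene of the 11 rose and 5 fell, beside 25.3% and 34.4% of all tested genes.

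Other zinc finger families mostly rose too. Of 13 Zbtb genes, whose BTB domain pairs proteins, 7 rose (53.8%) and 1 (Zbtb17, -0.38) fell (7.69%), beside 35.7% and 38.7% of all tested genes, with a median log2 fold change of 0.48. Zbtb32 (1.25 ± 0.23 SE, limma adjusted p = 0.00448), Zbtb21 (1.10 ± 0.12), Zbtb44 (0.82 ± 0.11) and Zbtb11 (0.71 ± 0.14) were the named ones. All 4 SCAN zinc finger genes rose (median 0.79): Zkscan7 (1.11), Zkscan8 (0.92), Zscan26 (0.65) and Zkscan5 (0.62). Of 8 CCCH zinc finger genes, which bind RNA rather than DNA in the case of Zfp36l1, 6 rose (median 0.62), with Zfp36l1 at 4718 ± 1174 scaled counts with MK-8617 and 1284 ± 155 in IRI (1.86 ± 0.17 SE, limma adjusted p = 0.00021). With both trends removed, 5 of the 13 Zbtb genes rose and 2 fell, 3 of the 4 SCAN genes rose and 0 fell, and 4 of the 8 CCCH genes rose and 1 fell, beside 25.3% and 34.4% of all tested genes. These lists are short, and no difference from other genes was tested.

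Cell type markers moved between the same groups, where 35.7% of all tested genes rose and 38.7% fell. Of 10 macrophage markers 9 were listed, 1 rose and 6 fell, with sums of 3432 to 4081 scaled counts with MK-8617 and 3438 to 6221 in IRI. Of 10 endothelial markers 2 were listed and 1 rose (sums of 3931 to 5249 with MK-8617 and 2672 to 3408 in IRI), and none of 10 lymphocyte markers was listed. None of the listed markers was at 0. Of the proximal tubule markers 2 rose and none fell. The part of these markers in the Zfp values was not tested.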

How the data were processed

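Per the labels' protocols, kidney RNA was extracted in TRIzol and made into libraries by the NEBNext Ultra RNA kit. The submitters' processing notes name DESeq2 1.20.0, featureCounts 1.5.0-p3, HISAT2 2.0.5, fastp and CASAVA 1.8, and a human build, whereas the gene identifiers are mouse. Samples were grouped by title.

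The deposited table holds, for 7340 genes, a signal that is the authors' read count divided by a size factor, the raw count of IRI replicate 3, FPKM, and the authors' log2 fold change, p-value and adjusted p-value. Dividing each signal by the worth of 1 read gave whole reads for 100% of values (tolerance 0.001), and these equalled the deposited counts of IRI replicate 3 in all 7340 genes. The count test of edgeR with TMM on the recovered reads called 65 Zfp genes higher and 4 lower, with its scaling estimated from the tested listed genes alone. The size factors were 0.976, 0.937 and 0.940 with MK-8617 and 1.06, 1.10 and 1.04 in IRI. A floor of 3 reads was 0.154 to 0.178 CPM, and it covers counting error only. Another 13 columns of the table were unnamed and empty, and 11 symbols turned into dates were restored.

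The main test was limma 3.58.1 (trend, robust) in R 4.3.3 on log2(scaled count + 1), after edgeR's filter on low counts (6961 genes kept, 379 removed). P-values were adjusted by Benjamini-Hochberg over the 18811 genes that the deposited adjusted p-values imply. A fold change on this scale understates the change of low genes. The procedure was tested on simulated data. Replicates were no duplicates of each other: chi-square per degree of freedom between replicates was 17.3 to 47.5.

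Transcript length and GC content came from the longest principal transcript of GENCODE M21 (GRCm38). Their trends were removed per library with natural splines (4 degrees of freedom). KRAB boxes were found with pyhmmer 0.12.3 and a profile of 144 seed windows of 35 residues (E below 0.001), and fingers by their spacing in the annotated reading frames. Promoter windows are RefSeq's.

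Named genes were the 10 largest rises and 10 largest falls among called Zfp genes whose groups did not overlap and whose mean was at least 50 scaled counts (6 falls met this), the 6 with the highest mean FPKM, and up to 4 called genes of each partner list with the smallest adjusted p. Zfp367 and Zfp369 matched the CCCH symbol pattern and were taken out of that list. The Zfp genes, lists and rules were chosen with earlier results of these data known. A total of 19 alternatives were run, with edgeR 4.0.16 and DESeq2 1.42.0 among them.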

Additional observations from a re-analysis of the deposited data

How the results depend on the processing

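In the main test 56 Zfp genes rose, 7 fell and the median log2 fold change was 0.57. edgeR with TMM gave 65 higher, 4 lower and a median of 0.62, DESeq2 gave 71 higher, 3 lower and 0.65, and the test on FPKM gave a median of 0.52. Adjustment over the listed genes alone gave 82 higher and 17 lower, so that all 99 tested Zfp genes were called. Listed genes had already passed the authors' test, which makes these counts high by construction. Removing the length trend gave 30 higher and a median of 0.40; removing length and GC trends gave 26 higher, 12 lower and 0.36. The scaling of TMM and of DESeq2 was estimated from the tested listed genes alone, a set chosen for differing between the groups. With the authors' size factors in place of TMM, edgeR gave 56 higher, 5 lower and a median of 0.56. Beyond these changes of setting, the cause of the differences was not tested. Leaving out 1 library at a time gave 30 to 57 higher, 4 to 6 lower and medians of 0.53 to 0.56; the lowest count of higher calls came without MK-8617 replicate 1 (30), and counts of 31 and 32 came without MK-8617 replicate 2 and IRI replicate 1. Called in all 6 of these fits were 26 of the 56 and 3 of the 7 (Zfp692, Zfp367 and Zfp217). With the replicate block 52 rose and 8 fell, and with the block and both trends removed 23 rose, 10 fell and the median was 0.36. Shares of all tested genes are given here for the main test and the trend removals only. The counts under the other settings therefore cannot be read against their own background. The replicate numbers were not taken as pairs: correlations of same-numbered samples' deviations were 0.02, 0.12 and 0.11, although every sample correlated best with its own number. Over the 37 named genes, 699 values in alternatives gave 629 with the same call and direction, 68 that lost the threshold, 2 that gained it and 0 that reversed. The lowest count of a tested Zfp gene in a library was 15 reads. In the lowest quartile of scaled counts 7 of 25 Zfp genes rose and 2 fell, beside 26.2% and 40.2% of 1716 other genes.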
